A study of Mus musculus with 8 samples.

Results

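The endoplasmic reticulum (ER) folding machinery and the unfolded protein response were followed through 10 genes in mouse hearts with and without the anion exchanger AE3. They are Hspa5, Hsp90b1, Hyou1, Pdia3, Pdia4, Pdia6, Calr, Atf6, Xbp1 and Dnajb9. Each was found in the counts table by the Entrez number of its symbol, so that all 10 of 10 genes were present, out of 23282 genes in the table, and all 10 passed the filter on low counts that left 14136 genes for testing. Whole-heart RNA had been sequenced from males of the FVB/N strain at an age of 4 months, in 4 libraries of wild-type and 4 of AE3-null genotype. AE3 is the product of Slc4a3 and trades chloride for bicarbonate across the membrane of heart muscle cells. The labels describe the AE3-null group by genotype only, no agent was given to either group, and how the null allele was made is not given in the sources used here. According to the design text each genotype was represented by 4 animals. The labels tie no library to an animal, so the p-values below rest on the spread of these libraries alone.

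The ER folds the proteins that a cell secretes or places in its membranes. BiP, encoded by Hspa5, is the Hsp70 chaperone of the ER lumen, and it works with the Hsp90 paralog Grp94, with nucleotide exchange factors and with J-domain partners. Protein disulfide isomerases form and rearrange disulfide bonds, and the lectin chaperones calreticulin and calnexin hold glycoproteins until they are folded. When unfolded proteins accumulate, the sensors ATF6, IRE1 and PERK start the unfolded protein response: ATF6 is cut in the Golgi and enters the nucleus, IRE1 splices the Xbp1 transcript, and PERK slows translation. ATF6 and spliced XBP1 then raise the chaperone genes. In heart muscle the ER is continuous with the sarcoplasmic reticulum, and calreticulin and Grp94 bind calcium in its lumen. Counts per gene do not separate spliced from unspliced Xbp1, nor cut from full-length ATF6 protein.

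Library totals ranged from 9133628 to 27078351 counts, and the 10 genes held between 391 (Pdia4) and 18004 (Hspa5) counts per library. Expression levels are in CPM, each count divided by its library size after TMM correction and multiplied to a shared total, and errors are SD over 4 libraries. Slc4a3 was at 384 ± 4.60 CPM in the wild type and 32.9 ± 1.26 CPM in the AE3-null libraries, with no overlap, so each library matched its label. The 10 cardiomyocyte markers were all abundant, with means from 3119 to 47989 CPM. On the first principal component of all tested genes (31.5% of the variance) wild-type replicate 2 was lowest, at -22.55. The other wild-type libraries lay between -14.8 and -1.20 there. On the second component (15.7%) wild-type replicate 3 was far from the rest (-22.6, where the others lay between -1.48 and 8.89). Fold changes and calls that rest on it are therefore given with and without it.

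A known link between these genes lies in their promoters, which are shown because ATF6 and XBP1 act there. Promoters, from RefSeq on build GRCm38.p6, were matched for 8 of the 10 genes, the exceptions being Hyou1 and Atf6. They were searched on both strands for the ER stress response element, the sequence bound by ATF6 together with NF-Y, spelled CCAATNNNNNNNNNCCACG. Of the 8 promoters 4 held it, those of Hspa5, Hsp90b1 (2 matches), Calr and Pdia6, against 0.119% of all 32851 promoters in the table, each 250 bases before to 50 after a gene's start. The letters of the second element, ATTGGNCCACG, and of the XBP1-binding element TGACGTGG were in none of the 8, against 0.0365% and 0.676% of all promoters. The windows below run from 230 to 31 bases before the start, on the strand of the gene, with the fixed letters of the element in capitals (CGTGG and ATTGG where it lies on the other strand). That of Pdia3 is shown as one in which the element was not found.
Hspa5, chr2:34771860-34772059, plus strand: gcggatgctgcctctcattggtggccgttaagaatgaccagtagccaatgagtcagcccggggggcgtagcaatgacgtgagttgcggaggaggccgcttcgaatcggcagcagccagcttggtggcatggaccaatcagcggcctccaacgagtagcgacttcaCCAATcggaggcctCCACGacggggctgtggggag
Hsp90b1, chr10:86705475-86705674, minus strand: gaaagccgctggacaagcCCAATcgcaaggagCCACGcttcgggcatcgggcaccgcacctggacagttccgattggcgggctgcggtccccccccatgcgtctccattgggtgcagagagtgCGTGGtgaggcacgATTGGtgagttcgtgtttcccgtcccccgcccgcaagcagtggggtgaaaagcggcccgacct
Calr, chr8:84846962-84847161, minus strand: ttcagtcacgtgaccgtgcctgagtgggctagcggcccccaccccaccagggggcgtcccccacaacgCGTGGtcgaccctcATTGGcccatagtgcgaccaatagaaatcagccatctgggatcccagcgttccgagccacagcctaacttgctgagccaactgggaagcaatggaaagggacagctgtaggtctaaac
Pdia6, chr12:17266359-17266558, plus strand: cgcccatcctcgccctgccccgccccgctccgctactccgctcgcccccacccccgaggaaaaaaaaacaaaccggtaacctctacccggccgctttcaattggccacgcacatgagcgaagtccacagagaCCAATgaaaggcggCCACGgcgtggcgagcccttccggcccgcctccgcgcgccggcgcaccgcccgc
Pdia3, chr2:121413672-121413871, plus strand: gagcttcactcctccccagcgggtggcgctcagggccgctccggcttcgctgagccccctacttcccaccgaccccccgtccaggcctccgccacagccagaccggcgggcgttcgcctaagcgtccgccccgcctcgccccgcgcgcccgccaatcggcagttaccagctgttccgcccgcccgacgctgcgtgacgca

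The element began 65 bases before the start of Hspa5, 98 before that of Pdia6 and 162 before that of Calr. In Hsp90b1 the matches began 212 and 107 bases before the start. A match is a description of the letters, and no library measured binding at these sites.

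The comparison of AE3-null with wild-type hearts asked whether the ER folding genes differ with the loss of the exchanger. All 10 genes had lower means in AE3-null hearts, by 5.90% for Hspa5 to 17.2% for Hyou1. Of these, 4 genes, Hyou1, Pdia3, Pdia6 and Atf6, fell by edgeR's quasi-likelihood test at an adjusted p under 0.05 over all tested genes. None rose. A fall was called for 3.31% of the 14136 tested genes, and for 5.57% of the 4487 genes averaging 40 CPM or more, a floor chosen after the data were seen to match the abundance of these genes. The median log2 fold change of the 10 genes was -0.17, against -0.0018 over all tested genes, of which 50.5% were below 0. In whole-heart RNA, fewer cells of a type and less RNA per cell cannot be told apart.

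**Figure D1:**
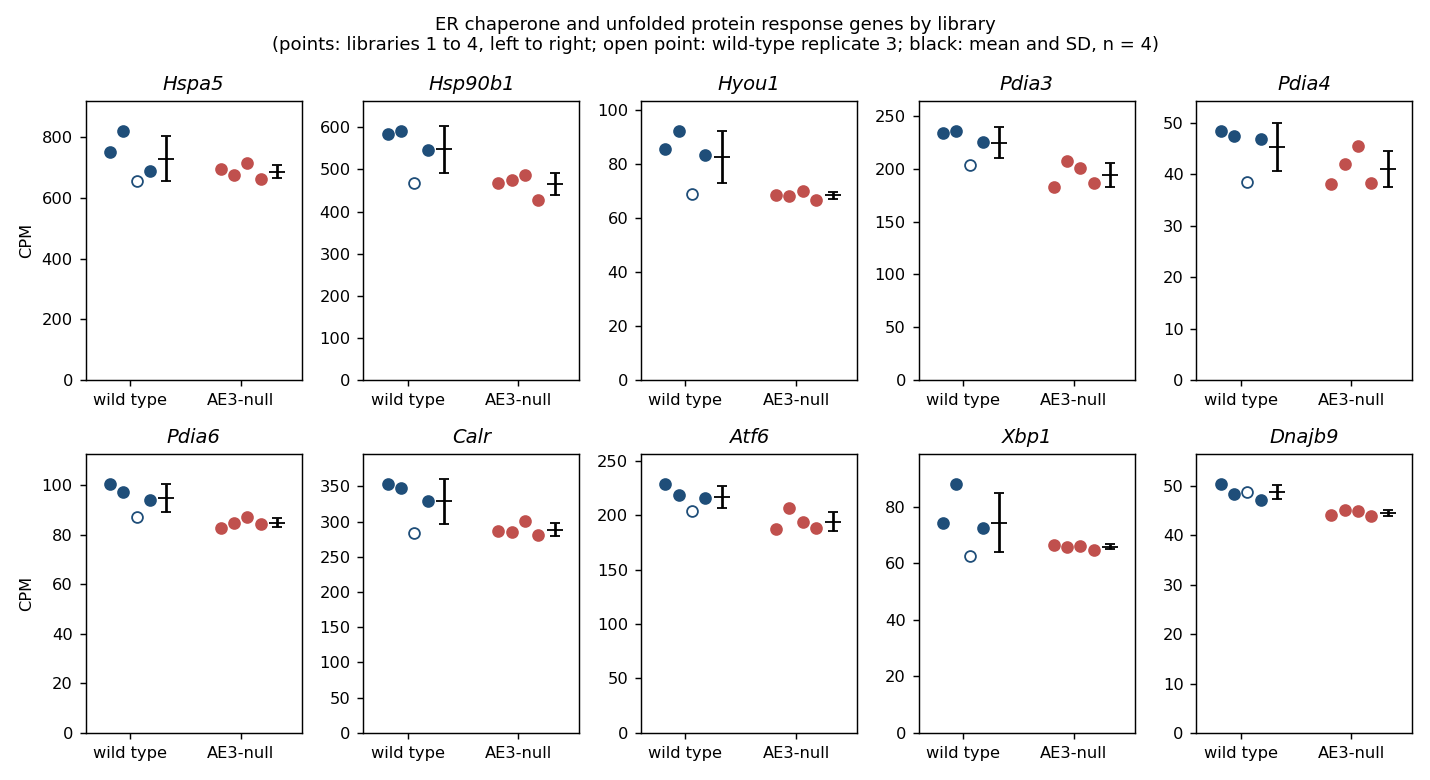
CPM of each of the 10 genes (vertical axes, from 0) in the 4 wild-type and 4 AE3-null libraries (points, in order of replicate number), with the mean and SD of each genotype in black. Wild-type replicate 3, the open point, was the lowest wild-type library for 9 of the 10 genes. Relative to their mean, the 4 AE3-null libraries lie closest together for Xbp1 (64.7 to 66.7 CPM, coefficient of variation 1.31%). They lie furthest apart for Pdia4 (38.2 to 45.5 CPM, 8.60%).

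Hspa5 (Entrez 14828), which encodes BiP, had the smallest difference of the 10. Its wild-type libraries held 751, 821, 656 and 690.3 CPM in replicates 1 to 4, and its AE3-null libraries 694, 676, 713 and 663 CPM. The groups overlapped throughout, with no AE3-null library below the lowest wild-type one. The means were 729.7 ± 72.6 and 687 ± 21.9 CPM (SD, n = 4), with a log2 fold change of -0.09 (SE 0.060, edgeR adjusted p 0.455). Leaving out single libraries moved it between -0.02, without wild-type replicate 2, and -0.13, without wild-type replicate 3.

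Hsp90b1 (Entrez 22027) encodes Grp94, the Hsp90 of the ER lumen. It was at 583, 592, 469 and 546 CPM in wild-type and 468, 476, 488 and 428 CPM in AE3-null libraries. Wild-type replicate 3 lay among the AE3-null values, and the other 3 wild-type libraries lay above all of them. Its log2 fold change, -0.24 (SE 0.073, edgeR adjusted p 0.0950), was the second largest of the 10 in size and did not pass the threshold. Without wild-type replicate 3 it was -0.30 (edgeR adjusted p 0.000258), and DESeq2 also called it with all libraries.

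Hyou1 (Entrez 12282) encodes the ER protein that exchanges nucleotide on BiP and is induced by low oxygen. Its wild-type libraries were at 85.6, 92.4, 69.1 and 83.4 CPM and its AE3-null libraries at 68.5, 68.2, 70.2 and 66.8 CPM. The AE3-null values spanned little, and wild-type replicate 3 was within them. The mean of Hyou1 fell from 82.6 ± 9.80 CPM in the wild type to 68.4 ± 1.38 CPM in AE3-null hearts (SD, n = 4), with a log2 difference of -0.27 (SE 0.070, edgeR adjusted p 0.0382), the largest of the 10. The log2 difference was -0.35 without wild-type replicate 3 (adjusted p 8.85e-05).

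Dnajb9 (Entrez 27362) encodes ERdj4, a J-domain partner of BiP that is a known target of XBP1. It was at 50.5, 48.4, 48.8 and 47.1 CPM in wild-type and 44.1, 45.1, 44.9 and 44.0 CPM in AE3-null libraries. All 4 AE3-null libraries were below all 4 wild-type libraries, which was so for only 1 other of these genes, Pdia6, and for 6.15% of all tested genes. Dnajb9 had the smallest spread of the 10 genes in wild-type hearts, a coefficient of variation of 2.88%, and a log2 difference of -0.13 (SE 0.045, edgeR adjusted p 0.0963). It was also the one gene of the 10 for which wild-type replicate 3 was not the lowest wild-type library.

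Of the 3 disulfide isomerases, 2 fell. Pdia3 (Entrez 14827) encodes ERp57, the isomerase that works with calreticulin and calnexin on glycoproteins. It was at 233, 236, 204 and 225 CPM in wild-type and 182, 207, 201 and 187 CPM in AE3-null libraries, so that 3 of the 4 AE3-null libraries lay below every wild-type one. The mean fell from 225 ± 14.5 CPM in the wild type to 194 ± 11.6 CPM (SD, n = 4), a log2 difference of -0.21 (SE 0.051, edgeR adjusted p 0.0210) with the smallest p of the 10 genes. Pdia3 ranked 525th by p among all tested genes.

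Pdia6 (Entrez 71853), an isomerase that also binds BiP, was at 101, 97.3, 87.2 and 93.9 CPM in wild-type and 82.8, 84.9, 87.2 and 84.2 CPM in AE3-null libraries. The groups did not overlap, although wild-type replicate 3 and AE3-null replicate 3 differed by less than the printed precision. Pdia6 fell by 0.16 on the log2 scale (SE 0.045, edgeR adjusted p 0.0434), and the call was lost in 11 of 17 alternative settings. Pdia4 (Entrez 12304), which encodes ERp72, was at 48.5, 47.5, 38.4 and 46.9 CPM in wild-type and 38.2, 42.1, 45.5 and 38.3 CPM in AE3-null libraries. In the wild type 3 libraries lay close together and replicate 3 lay 8.47 CPM below the next. The log2 fold change of Pdia4 was -0.15 (SE 0.077, edgeR adjusted p 0.288), and -0.22 (adjusted p 0.0242) without that library.

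Calr (Entrez 12317) encodes calreticulin, the soluble lectin chaperone and calcium store of the lumen. It was at 354, 348, 284 and 329 CPM in wild-type and 287, 285, 301 and 281 CPM in AE3-null libraries. Again wild-type replicate 3 lay among the AE3-null values and the other wild-type libraries lay above them. For Calr the log2 difference was -0.19 (SE 0.059, edgeR adjusted p 0.0831), and -0.25 (adjusted p 0.000297) without wild-type replicate 3. Its membrane-bound relative Canx, which encodes calnexin, had means of 445 ± 12.5 CPM in wild-type and 457 ± 8.55 CPM in AE3-null hearts (SD, n = 4; log2 0.04, SE 0.033, edgeR adjusted p 0.532).

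Of the transcription factors, Atf6 (Entrez 226641) was at 229, 219, 204 and 215 CPM in wild-type and 187, 207, 194 and 188 CPM in AE3-null libraries. Only AE3-null replicate 2 reached into the wild-type range. The mean of Atf6 fell from 217 ± 10.5 CPM in the wild type to 194 ± 8.86 CPM (SD, n = 4), a log2 difference of -0.16 (SE 0.043, edgeR adjusted p 0.0324). Xbp1 (Entrez 22433) was at 74.5, 88.3, 62.6 and 72.5 CPM in wild-type and 66.7, 65.8, 66.3 and 64.7 CPM in AE3-null libraries. Its wild-type coefficient of variation, 14.2%, was the largest of the 10 genes and its AE3-null one, 1.31%, the smallest. The log2 fold change of Xbp1 was -0.18 (SE 0.083, edgeR adjusted p 0.257). It was -0.25 (adjusted p 0.0104) without wild-type replicate 3 and -0.09 (adjusted p 0.448) without wild-type replicate 2, its highest library.

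**Figure D2:**
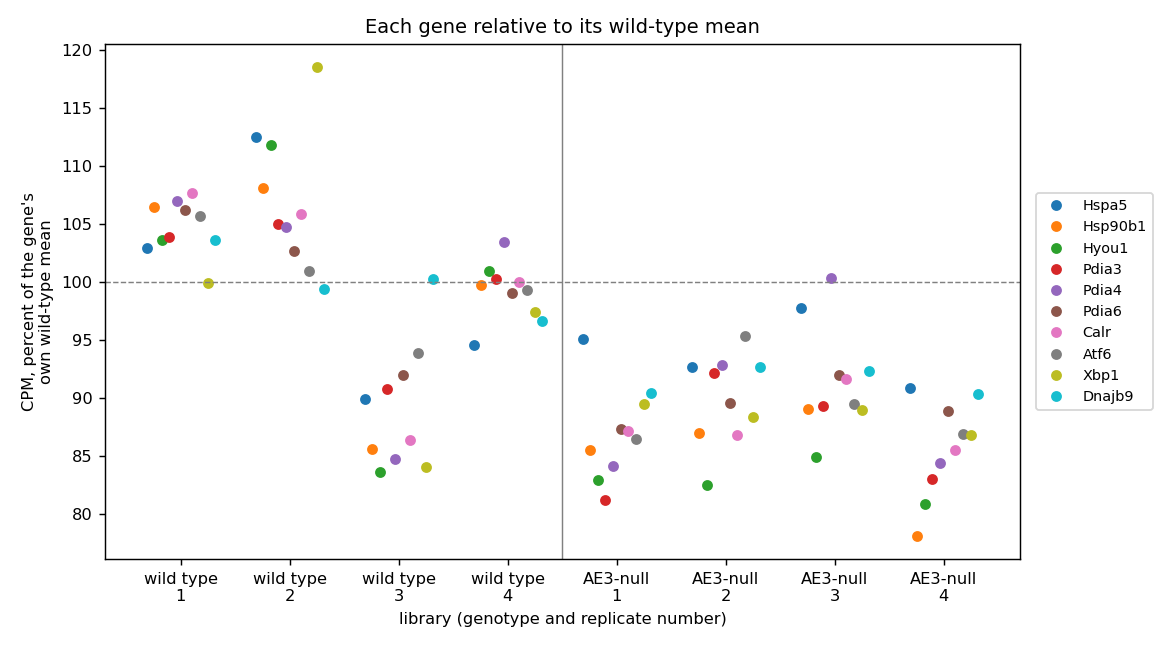
CPM of each of the 10 genes as a percent of its own wild-type mean (vertical axis) in each of the 8 libraries (horizontal axis; 1 colour per gene, points set side by side within a library). In wild-type replicate 3 the median gene stood at 88.2% of its wild-type mean, within the 86.2% to 90.9% of the AE3-null libraries, while the other wild-type libraries were at 99.6% to 105%.

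The 10 genes varied together between libraries. Relative to its own wild-type mean, the median gene stood at 105%, 105%, 88.2% and 99.6% in wild-type replicates 1 to 4 and at 86.8%, 90.9%, 90.6% and 86.2% in AE3-null replicates 1 to 4. Wild-type replicate 3 was the lowest wild-type library for 9 of the 10 genes, against 30.4% of all tested genes and 34.4% of those with at least 40 CPM. After each gene was centred within its genotype, 44 of the 45 pairs of genes had a positive Pearson correlation over the 8 libraries, with a median of 0.77. For the 4487 genes with at least 40 CPM the median over pairs was 0.0088. These correlations share the same 8 libraries and their scaling and are given as a description. The spread within the wild type was the larger one (median coefficient of variation 9.78%, against 3.12% in AE3-null libraries), so the wild-type libraries weigh more in them. They were not computed within the AE3-null libraries alone, and shared variation there is not shown. They were also not computed without wild-type replicate 3, and how far they rest on that library was not tested. Pdia6 with Calr was the closest pair (r = 0.96), followed by Hyou1 with Xbp1 (0.95). Dnajb9 was the exception, with no correlation above 0.57 to any other gene, while the 36 pairs without it were all at 0.45 or higher.

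With all 8 libraries the spread was larger in the wild type for each of the 10 genes. The median coefficient of variation was 9.78% among the wild-type libraries and 3.12% among those of AE3-null hearts. For the genes with at least 40 CPM the medians were 4.37% and 3.74%, and 59.5% of them varied more in the wild type. Without wild-type replicate 3 the wild-type SD was below the AE3-null SD for Pdia4 (0.803 against 3.53 CPM) and Pdia3 (5.53 against 11.6 CPM). The same held for Hsp90b1 (24.4 against 26.1 CPM) and Atf6 (7.10 against 8.86 CPM). It stayed above the AE3-null SD for Hspa5, Hyou1, Pdia6, Calr, Xbp1 and Dnajb9. The difference in spread was not tested.

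**Figure D3:**
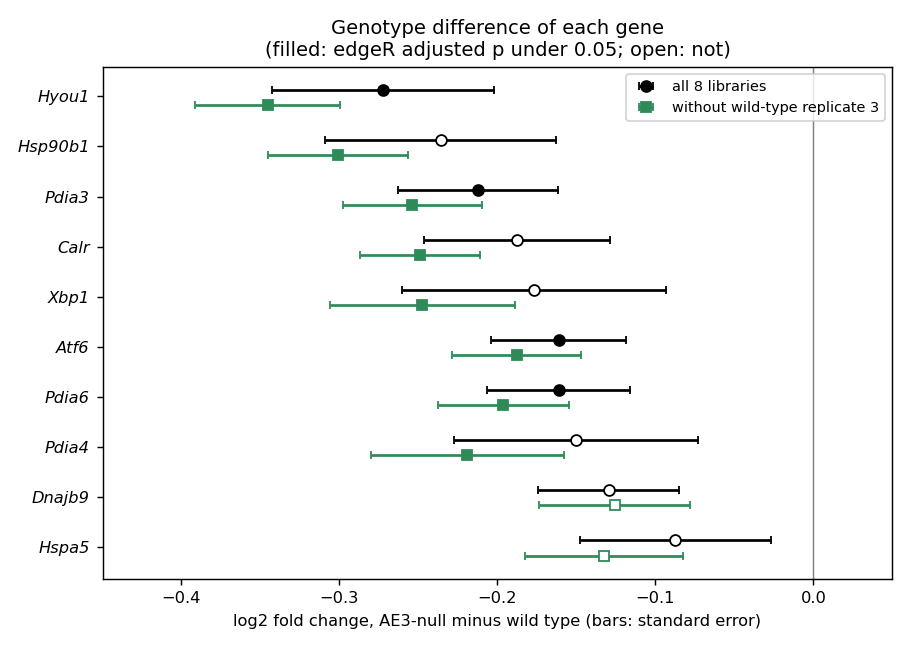
Log2 fold change of each of the 10 genes (horizontal axis; negative is lower in AE3-null hearts) with its standard error, from all 8 libraries (black circles) and without wild-type replicate 3 (green squares). Filled symbols mark an edgeR adjusted p under 0.05: 4 genes with all libraries and 8 without that library, Hspa5 and Dnajb9 staying open in both.

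Whether the fall was called depended on single libraries. Without wild-type replicate 3, 8 of the 10 genes fell, all but Hspa5 and Dnajb9, and the median log2 fold change was -0.23, against 0.0025 over all genes tested. In that fit a fall was called for 6.33% of all tested genes. With that library set aside, the 4 AE3-null libraries were below the other 3 wild-type libraries for 9 of the 10 genes, all but Hspa5, and for 12.0% of all tested genes. With all libraries this was so for 2 of the 10 and 6.15%. The library set aside was the lowest wild-type one for 9 of the 10 genes and 30.4% of all tested genes. Its removal thus favours such a separation more for the 10 genes, and no conclusion is drawn from it. Leaving out any of wild-type replicates 1, 2 or 4 or AE3-null replicates 1 or 4 gave no call among the 10 genes by edgeR. In each of these 5 fits 7 genes kept an unadjusted p under 0.05. Calls were fewer over all genes too: a fall was called for 1.37% to 2.20% of the genes tested in these fits, against 3.31% with all libraries. The median log2 fold change of the 10 genes stayed between -0.175 and -0.14. Without AE3-null replicate 2 Pdia3 and Atf6 were called, and without AE3-null replicate 3 Pdia3 alone. In all 17 alternative settings all 10 log2 fold changes were below 0. These settings share their libraries and are not independent, and the looser threshold reuses the reported fit.

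**Figure D4:**
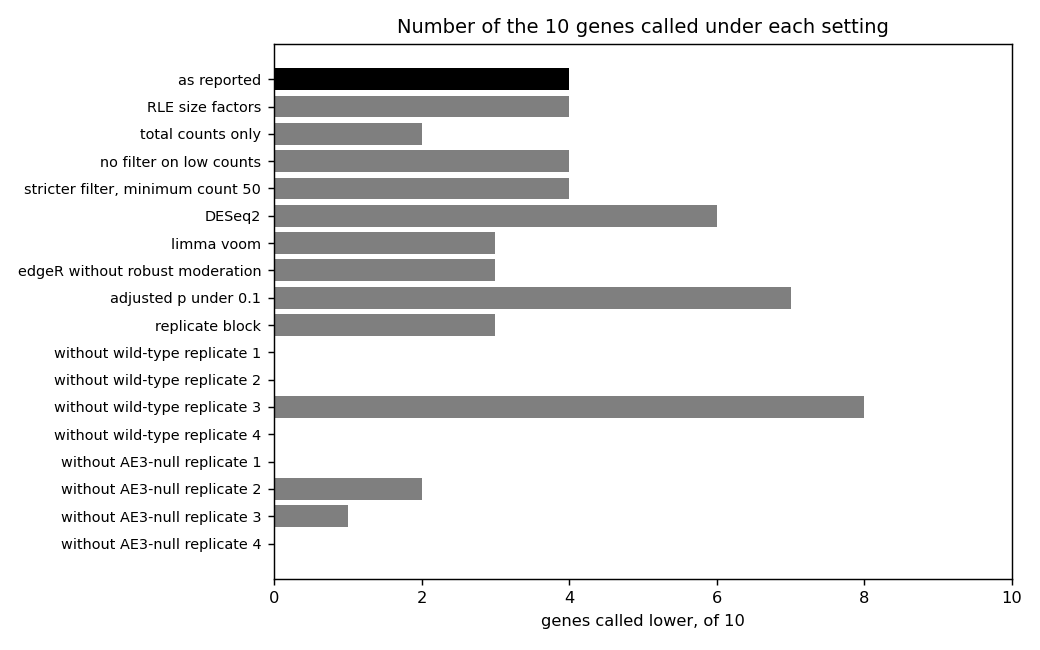
Number of the 10 genes called lower (horizontal axis) as reported (black) and under each of the 17 alternative settings (grey). The count runs from 0, in 5 of the 8 settings that leave out a library, to 8 without wild-type replicate 3, and stays between 2 and 7 in the settings that keep all libraries.

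Genes with and without the promoter element overlapped in their fold changes. The 4 genes with the element had log2 fold changes between -0.24 and -0.09 (median -0.17), and 1 of them, Pdia6, fell. The 4 matched genes without it lay between -0.21 and -0.13 (median -0.16), and 1 of them, Pdia3, fell. Among the other ER genes with a promoter in the table, 5 of 93 held the element, Canx, Creld2, Dnajc3, Ero1b and Syvn1. Their log2 fold changes lay between -0.29 (Creld2) and 0.04 (Canx), and none was called by edgeR.

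Per kilobase of exon, wild-type levels were highest for Hspa5 and Hsp90b1, at 194 ± 19.3 and 194 ± 19.9 CPM per kb (SD, n = 4), which did not differ beyond their spread. Calr followed at 151 ± 14.5, Pdia3 at 81.1 ± 5.24 and Pdia6 at 43.6 ± 2.65 CPM per kb. Xbp1 (31.2 ± 4.42) and Atf6 (29.9 ± 1.45) did not differ beyond their spread, nor did Dnajb9 (19.8 ± 0.571), Pdia4 (18.9 ± 1.94) and Hyou1 (17.3 ± 2.05). Exon lengths were the merged exons of the GENCODE M21 basic set and may not be those used for counting, so these levels are approximate. In AE3-null hearts Hspa5 was at 183 and Hsp90b1 at 165 CPM per kb.

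Another 7 lists of the wider ER machinery held 111 tested genes, of which 4 fell and 2 rose, where 3.31% of all tested genes fell and 3.16% rose. Their median log2 fold change was -0.02. Without wild-type replicate 3 edgeR called 11 of these genes lower and 3 higher, against 6.33% and 5.74% of all genes tested in that fit, and the median was -0.03. The sensor, co-chaperone and lectin lists then held 3 lower genes each. Among sensors, proteases and transcription factors 1 of 15 fell, Atf4, the transcription factor downstream of PERK. Atf4 was at 75.6, 76.8, 61.5 and 72.5 CPM in wild-type and 63.1, 63.9, 58.2 and 59.6 CPM in AE3-null libraries (log2 -0.23, SE 0.063, edgeR adjusted p 0.0415), with wild-type replicate 3 again within the AE3-null range. The sensor genes Ern1 (IRE1) and Eif2ak3 (PERK) had log2 fold changes of -0.15 and 0.13 (edgeR adjusted p 0.190 and 0.394). Ddit3, which encodes the stress-induced factor CHOP, was at 22.9 ± 1.89 and 23.2 ± 1.85 CPM (SD, n = 4) in wild-type and AE3-null hearts.

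**Figure D5:**
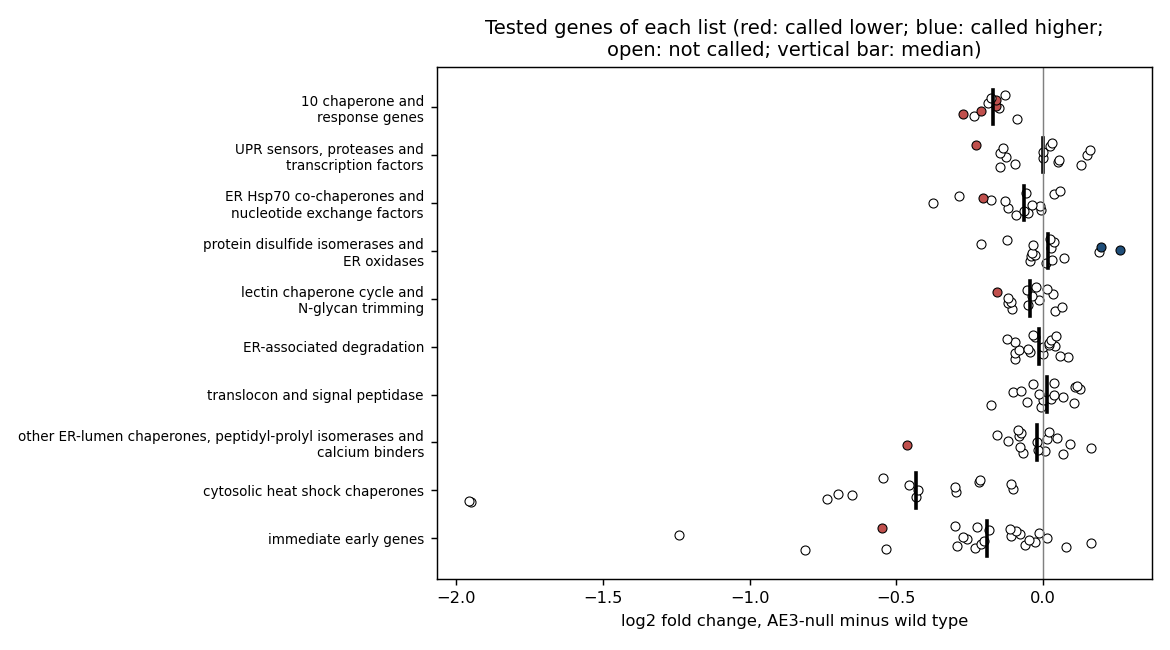
Log2 fold change (horizontal axis; negative is lower in AE3-null hearts) of every tested gene of the 10 ER genes, of 7 further ER lists, of heat shock chaperones and of immediate early genes, with the median of each list as a bar. The heat shock list, marked cytosolic, includes the mitochondrial chaperone genes Hspd1 and Hspe1. The medians of the ER lists other than the 10 genes lie between -0.07 and 0.02, those of the 10 genes at -0.17, of heat shock chaperones at -0.43 and of immediate early genes at -0.19.

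In a list of 15 ER Hsp70 co-chaperones, exchange factors and related ER proteins, 13 genes had negative log2 fold changes and 1 fell. That gene, Creld1, a membrane-bound ER protein needed for heart development, went from 43.1 ± 2.01 to 37.3 ± 0.805 CPM (SD, n = 4; log2 -0.21, SE 0.050, edgeR adjusted p 0.0204), and its groups did not overlap. Its soluble relative Creld2, an ER stress gene, was at 17.7 ± 2.67 and 14.5 ± 0.301 CPM (log2 -0.29, SE 0.091, edgeR adjusted p 0.0724). Among the other disulfide isomerases and oxidases 2 of 16 rose and none fell by edgeR, both with all libraries and without wild-type replicate 3, and 3 had an unadjusted p under 0.05 with all libraries. The risen genes encode membrane-bound thioredoxin-like proteins, Tmx4 (109.7 ± 7.04 to 126 ± 1.21 CPM, SD, n = 4; log2 0.20, SE 0.043, edgeR adjusted p 0.0118) and Tmx2 (log2 0.26, SE 0.068, adjusted p 0.0388). In both genes wild-type replicate 3 was the highest wild-type library, at 119 CPM for Tmx4 and 98.8 CPM for Tmx2.

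In the lectin and N-glycan list 1 of 14 genes fell, Rpn1, a subunit of the oligosaccharyltransferase (94.0 ± 4.99 to 84.2 ± 1.05 CPM, SD, n = 4; log2 -0.16, SE 0.043, edgeR adjusted p 0.0369). Of 17 other lumenal chaperones, isomerases and calcium binders 1 fell, Serpinh1, the collagen chaperone HSP47. Serpinh1 was at 305, 333, 235 and 303 CPM in wild-type and 202, 222, 221 and 208 CPM in AE3-null libraries, with no overlap (log2 -0.47, SE 0.102, edgeR adjusted p 0.0416). It is the largest difference among the ER genes named here. Collagen-producing cells such as fibroblasts are known to express it. Of 12 fibroblast markers 3 fell, against 3.31% of all tested genes, and their median log2 fold change was -0.06. Their summed levels were 4189 to 4637 CPM in wild-type and 4290 to 4412 CPM in AE3-null libraries. The highest sum, 4637 CPM, was in wild-type replicate 3, the wild-type library with the least Serpinh1. The part of fibroblasts in the difference of Serpinh1 was not tested. With 1 library left out, Atf4, Tmx2, Rpn1 and Serpinh1 were called only without wild-type replicate 3, Creld1 only without wild-type replicate 1 or 3 or AE3-null replicate 3, and Tmx4 in every such fit but the one without wild-type replicate 4 (edgeR adjusted p 0.0521).

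With all 8 libraries neither ER-associated degradation nor the translocon gave a call by edgeR. Of 18 degradation genes 2 had an unadjusted p under 0.05, among them Ube2g2, which encodes a ubiquitin-conjugating enzyme (log2 -0.12, edgeR adjusted p 0.181). Without wild-type replicate 3 edgeR called Ube2g2 lower (log2 -0.17, adjusted p 0.0199), as 1 of the 18 degradation genes, and no translocon gene. Of 16 translocon and signal peptidase genes 1, Sec11a, had an unadjusted p under 0.05 with all libraries (log2 0.13, edgeR adjusted p 0.219). Srprb was next (log2 0.12, adjusted p 0.258). With all libraries DESeq2 and limma voom called none in either list.

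Among the wild-type libraries the heat shock chaperones outside the ER and the immediate early genes were lowest on average in replicate 3, as the ER genes were. The heat shock list is mainly cytosolic but includes Hspd1 and Hspe1, which encode mitochondrial chaperones. The mean log2 CPM of 15 heat shock chaperones was 7.59, 8.09, 6.86 and 7.57 in wild-type replicates 1 to 4 and between 6.89 and 7.16 in AE3-null libraries, so wild-type replicate 3 was the lowest of all 8. The AE3-null libraries did not share an order: the 10 ER genes had their highest mean log2 CPM in AE3-null replicate 3 (7.15), where the heat shock chaperones had their lowest (6.89) and the immediate early genes stood at 4.05. Hspa1a is a stress-induced Hsp70 with a near-identical copy, Hspa1b, and how reads were assigned between the copies is not given. Hspa1a was at 60.7, 172, 9.91 and 46.6 CPM in wild-type and 21.7, 24.0, 8.58 and 21.1 CPM in AE3-null libraries. All 15 heat shock genes had negative log2 fold changes, with a median of -0.43. None was called by edgeR, although 9 had an unadjusted p under 0.05, 5 were called by DESeq2 and 3 by limma voom. Without wild-type replicate 3 edgeR called 7, against a fall in 6.33% of all genes tested in that fit. Of all 14136 tested genes DESeq2 called 505 lower and limma voom 449. Fewer than 3221 of them had an unadjusted edgeR p under 0.05, since Xbp1 held that rank at a p of 0.0586. Among the heat shock genes Bag3 and Hsp90ab1 had the smallest p (log2 -0.21 and -0.30, edgeR adjusted p 0.0556 and 0.0950). Of 24 immediate early genes 1 fell, Maff (log2 -0.55, SE 0.130, edgeR adjusted p 0.0240), and the list averaged a log2 CPM of 4.03 in wild-type replicate 3 and 4.50 to 4.58 in wild-type replicates 1, 2 and 4, and 3.97 to 4.48 in AE3-null libraries. With 1 library left out, Maff was called only without wild-type replicate 3 or AE3-null replicate 4. The part of these genes' variation in the result for the ER genes was not tested.

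Some markers of other cells were called between genotypes as well, where 3.31% of all tested genes fell and 3.16% rose. Fewer than 3221 of the 14136 tested genes had an unadjusted p under 0.05 by edgeR. Of 12 endothelial markers 5 fell. All 12 log2 fold changes were below 0, 9 of them with an unadjusted p under 0.05 by edgeR. The summed level of these markers was 1892 to 2097 CPM in wild-type and 1698 to 1752 CPM in AE3-null libraries, with wild-type replicate 3 the lowest wild-type one. Of 8 atrial markers 7 rose (3045 to 3596 and 4040 to 4660 CPM). Of the cardiomyocyte markers 2 of 10 rose, of smooth muscle and pericyte markers 2 of 10, and of epicardial markers 1 of 8. Of 9 tested red cell markers 1 fell. All 9 of their log2 fold changes were below 0 (median -0.60), 8 of them with an unadjusted p under 0.05 by edgeR. Of the macrophage, plasma and B cell, and adipocyte markers none was called by edgeR, with 3, 1 and 0 at an unadjusted p under 0.05. Without wild-type replicate 3 the endothelial and atrial counts were again 5 and 7, 1 cardiomyocyte marker rose, and 3 fibroblast markers rose beside 3 that fell. The 10 plasma and B cell markers, from cells rich in ER, summed to 18.2 to 22.3 CPM in wild-type and 17.9 to 22.4 CPM in AE3-null libraries. Macrophage sums were 411 to 474 and 393 to 459 CPM, smooth muscle and pericyte sums 1470 to 1527 and 1572 to 1679 CPM, and red cell sums 5311 to 8459 and 3690 to 5097 CPM. No marker was at 0 in all libraries, and the part of these cells in the result for the ER genes was not tested.

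By the similarity of their variation within genotypes, the genes most like the mean of the 10 were Bace2, Smg5, Ikzf2, Usp25, Prpf4b, Macf1, Zfp263, Enpp1, Hras and Hipk1. They were ranked by the Pearson correlation of centred log2 CPM over the 8 libraries, from 0.99 (Bace2) to 0.96 (Hipk1), among 10606 genes averaging 5 CPM or more. The ranking was not repeated without wild-type replicate 3. None of the 10 belonged to the ER, heat shock or immediate early lists, and with all 8 libraries none was called between genotypes by edgeR, DESeq2 or limma voom, nor had any an unadjusted p under 0.05. Without wild-type replicate 3 edgeR called Hipk1 lower (log2 -0.18, adjusted p 0.00559). The median correlation of a list with that mean was 0.75 for heat shock chaperones, 0.69 for the lectin cycle, 0.66 for the co-chaperone list and 0.48 for immediate early genes. It was 0.40 for the translocon and 0.37 for the other lumenal chaperones. For the disulfide isomerases and the degradation genes it was 0.30 each, and 0.23 for sensors and transcription factors.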

How the data were processed

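The authors deposited raw read counts per gene, 1 column per library. The submitters' processing notes name bcl2fastq of CASAVA 1.8 for base-call conversion; per the same notes the reads were aligned to build mm9 with TopHat, and DESeq was used for testing. How reads were counted, with which annotation and whether by strand, is not given in the sources used here, so reads of overlapping or near-identical genes are uncertain. In RefSeq gene spans Rabepk overlaps Hspa5 and Catsper2 overlaps Pdia3, both at under 11 CPM.

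Columns were assigned to samples by title. Entrez numbers were matched to RefSeq symbols of assembly GRCm38.p6 for 23185 of 23282 rows. Genes passing edgeR's filterByExpr (minimum count 10) were TMM-scaled and tested between genotypes by edgeR's robust quasi-likelihood F test, without covariates. P-values were adjusted by Benjamini-Hochberg over all 14136 genes, and a gene is called under 0.05. Each standard error is the fold change divided by the root of its F statistic. Log2 CPM used a prior count of 2. The work used edgeR 4.0.16, DESeq2 1.42.0 and limma 3.58.1 under R 4.3.3.

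The 10 genes and all lists were chosen with earlier results of these data known. Named were the 10 genes, Slc4a3, up to 4 called members of each list (or up to 2 uncalled ones with the smallest p) and the 10 genes most like the mean of the 10, without predicted models. The values of 1 gene that this rule names are not reported here. Hspa1a, Ern1, Eif2ak3, Ddit3, Canx and Creld2 were added after their values were seen, and Dnajc3, Ero1b and Syvn1 for their promoters. Marker lists of the general cardiomyocyte, atrial, fibroblast, endothelial, smooth muscle and pericyte, macrophage, plasma and B cell, red cell, adipocyte and epicardial kinds were summed as CPM. Adipocyte sums were 377 to 424 CPM in wild-type and 303 to 408 CPM in AE3-null libraries, and epicardial sums 83.0 to 96.0 and 91.9 to 106 CPM.

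The steps were tested on simulated counts for the 14136 genes, with the libraries' own depths and dispersions. For this comparison edgeR found 8, 21, 38 and 47 of 50 genes altered by 1.15, 1.25, 1.5 and 2 times, and it called 7 of 13936 unaltered ones. Alternatives were RLE or total-count scaling, no filter or a minimum count of 50, DESeq2, limma voom, edgeR without robust moderation, an adjusted p under 0.1, the replicate number as a block, and each library left out. Within a genotype, pairs of libraries had a chi-square of 2.51 to 7.40 per gene, and no library was a copy.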

Additional observations from a re-analysis of the deposited data

Results flagged for a closer look

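Of 68 groups of 4 libraries checked (34 genes in each genotype), 1 held a library far from the others, where chance flags about 1 in 20 groups. Pdia4 was at 38.44 CPM in wild-type replicate 3, while the other 3 wild-type libraries lay between 46.9 and 48.5 CPM. The gap of 8.47 CPM was 0.842 of the whole wild-type range, above Dixon's critical value for 4 samples. AE3-null libraries 1 and 4, at 38.2 and 38.3 CPM, lay at the level of this wild-type library.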

How the results depend on the processing

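All 10 genes kept a negative log2 fold change in each of the 17 alternatives, of which the looser threshold cannot change a fold change. Of the 10, 2 were called with scaling by total counts and 7 at an adjusted p under 0.1, where the number called over all genes was 1546 against 915. With scaling by total counts 528 genes were called higher and 361 lower, against 447 and 468. With 1 library left out, the number of the 10 genes called ran from 0, in 5 of these fits, to 8 without wild-type replicate 3, and over all genes from 407 without AE3-null replicate 4 to 1727 without wild-type replicate 3. The cause of these changes was not tested. The adjusted p of Pdia3 reached 0.0806, that of Hyou1 0.119, that of Atf6 0.114 and that of Pdia6 0.139 in the least favourable alternative. Among the uncalled genes most like the 10, Ikzf2 ranged from -0.1724 to 0.1165, Macf1 from -0.006792 to 0.04273 and Enpp1 from -0.02165 to 0.07704 with 1 library left out, so their signs are not fixed. Of the genes named from the lists, the calls of Atf4, Rpn1 and Serpinh1 were lost in 10, 9 and 9 of the 17 alternatives, those of Tmx2, Maff and Creld1 in 7, 6 and 5, and that of Tmx4 in 1. The labels do not say whether the replicate numbers pair the libraries. The deviations of same-numbered libraries correlated at 0.162, -0.0397, 0.0154 and -0.00282, and those of differently numbered ones between -0.155 and 0.0844. So few values cannot settle whether the numbers pair. In the fit with the replicate block 3 of the 10 genes and 1002 of all genes were called. With 4 libraries a group, small changes can miss the threshold, so an uncalled gene is not shown to be unchanged.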
